A study of Homo sapiens with 12 samples.

Results

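Mitochondrial complex I is represented here by 49 genes, all encoded in the nucleus: 6 core subunits, 30 supernumerary subunits and 13 assembly factors. They were chosen as known nuclear subunits and assembly factors of the complex and were matched by symbol among the 63241 genes counted. Transcripts were counted after poly-A selection and sequencing of RNA from MDA-PCa-2b cells, a line derived from human prostate cancer; the growth protocol in the labels also names MDA-PCa-2a. The 12 libraries form 4 groups of 3, labelled NT, KD1 and KD2 (first and second DHODH knock down) and KDR (rescue of knock down 2). The labels give neither the meaning of NT, nor the kind of construct, nor how the rescue was made, nor whether libraries of a group came from separate cultures. The p-values thus rest on variation from library to library, part of which may be technical.

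Complex I oxidises NADH in the mitochondrial matrix, passes the electrons through a flavin and a chain of iron-sulfur clusters to ubiquinone, and pumps protons across the inner membrane. Core subunits carry the redox centres and the proton pumps, supernumerary subunits form a shell around them that is needed for assembly and stability, and assembly factors help to build the complex without staying in it. The membrane core is encoded in mitochondrial DNA. DHODH, the enzyme named in the group labels, makes orotate for pyrimidine synthesis and delivers its electrons to the same ubiquinone pool.

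All 49 genes passed the filter on low counts, with 13 to 5514 counts per gene and library in libraries of 23786288 to 38240369 counts, and together they took 0.18% to 0.225% of the counts. Levels are given in CPM, each count divided by its library's total after scaling the totals by the trimmed mean of M values and set to a total of 1e+06. A gene is said to have risen or fallen where edgeR's quasi-likelihood test gave a Benjamini-Hochberg adjusted p under 0.05 over the 19373 genes tested. The spread between replicates, as a biological coefficient of variation, was 15.7% in NT and 5.53% to 7.16% in the other groups; it was 8.57% in NT without replicate 2. DHODH stood at 9.18, 13.4 and 8.95 CPM in the NT libraries, at 9.62 to 11.0 in KD1, 11.4 to 14.9 in KD2 and 17.5 to 19.2 in KDR. It was not called lower in KD1 (log2 fold change -0.03, adjusted p = 0.97) or KD2 (0.31, adjusted p = 0.097). Without NT replicate 2 it was called higher in KD2 (0.52, adjusted p = 0.0014), and it was called with offsets for GC content and exon length too. Each direction below therefore refers to a group's label, and lower DHODH RNA was not observed in either. Summed markers of immune cells (at most 0.248 CPM, 2 of 3 at 0 in every library), endothelium (at most 0.706, 1 of 3 at 0), fibroblasts (at most 4.66) and basal epithelium (at most 3.54) were low, while all 9 luminal prostate markers were expressed.

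For 43 of the 49 genes a RefSeq promoter was at hand. Factors known to bind promoters of respiratory genes include NRF1, ETS family factors such as GABP, and YY1, and their letters were searched on both strands as GCGCANGC, CCGGAAG and AAGATGGC. In the 250 bases before the RefSeq start, NRF1 letters were present in 12 of 43 promoters (27.9%, against 10.9% of 27305 promoters of the same length) and ETS letters in 7 (16.3%, against 8.8%). The NRF1 letters were in 5 of the 18 promoters of genes that fell in KD2 and in 7 of the other 25. YY1 letters were in none before the start (1.4% of all promoters) and in 6 (14.0%, against 3.0%) when 50 bases after the start were included. Matches of different motifs may overlap and were counted separately. A match is only a description of the window, and no match says only that these letters are not in it. The 4 promoters printed belong to genes that fell in the libraries labelled KD2. Each lies outside the model of its own gene used for counting, and overlap with models of other genes was not examined. They show the range found among such genes: NRF1 letters in 2 of them (NDUFS6 and NDUFAB1), ETS letters in 1 (NDUFA1) and none of these letters in the last (TMEM126B, an assembly factor). All run 5′ to 3′ on the gene's strand (GRCh38.p14, RefSeq), with matches in capitals: NDUFS6 at chr5:1801157-1801406 on the plus strand, NDUFAB1 at chr16:23596317-23596566 on the minus strand, NDUFA1 at chrX:119871582-119871831 on the plus strand and TMEM126B at chr11:85628323-85628572 on the plus strand.
NDUFS6: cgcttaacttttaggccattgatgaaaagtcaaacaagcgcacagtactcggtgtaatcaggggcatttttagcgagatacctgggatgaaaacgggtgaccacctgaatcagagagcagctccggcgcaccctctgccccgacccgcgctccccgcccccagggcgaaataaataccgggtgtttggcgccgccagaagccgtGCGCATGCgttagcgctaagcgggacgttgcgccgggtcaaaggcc
NDUFAB1: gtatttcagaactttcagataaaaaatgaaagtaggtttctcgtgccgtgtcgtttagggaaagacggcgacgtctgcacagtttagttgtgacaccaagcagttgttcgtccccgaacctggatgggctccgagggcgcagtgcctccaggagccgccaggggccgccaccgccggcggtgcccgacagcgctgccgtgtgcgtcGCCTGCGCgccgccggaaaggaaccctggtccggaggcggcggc
NDUFA1: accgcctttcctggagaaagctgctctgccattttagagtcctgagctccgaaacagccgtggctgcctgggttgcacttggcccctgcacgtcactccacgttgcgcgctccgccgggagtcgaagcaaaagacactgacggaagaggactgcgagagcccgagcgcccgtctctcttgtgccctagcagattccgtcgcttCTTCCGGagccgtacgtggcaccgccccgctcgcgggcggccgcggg
TMEM126B: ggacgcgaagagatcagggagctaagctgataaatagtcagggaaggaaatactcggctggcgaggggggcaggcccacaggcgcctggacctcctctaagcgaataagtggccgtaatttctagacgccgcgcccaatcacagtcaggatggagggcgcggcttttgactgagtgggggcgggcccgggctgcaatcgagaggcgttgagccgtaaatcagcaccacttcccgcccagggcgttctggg

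The nuclear core subunits belong to the matrix arm, where the redox centres lie. In KD2, 1 of 6 fell and none rose against NT; over all genes tested, 35.9% were called in this comparison (18.2% lower and 17.8% higher, as shares of all). The fall was that of NDUFS8, which holds iron-sulfur clusters near the ubiquinone site. In KDR against NT 4 of 6 fell, NDUFS8, NDUFS1, NDUFS3 and NDUFV1, where 27.5% of all genes were called (14.5% lower, 13.0% higher). These small counts moved with single libraries: in KD2, 3 of 6 fell without NT replicate 1 and 2 without NT replicate 2 or 3 or KD2 replicate 2, while in KDR, 1 fell without KDR replicate 2 and 2 without any 1 of NT replicates 2 and 3 and KDR replicates 1 and 3. They moved with the setting too. In KD2, 3 of 6 fell with at least 1 CPM demanded or with offsets for GC content and exon length, and 2 with the replicate block. With only the compared groups fitted, 1 of 6 fell in KDR. Summed over the 6 genes, the level was 390.3, 445 and 437 CPM in NT, 398 to 401 in KD1, 350.3 to 369.9 in KD2 and 357 to 366 in KDR, so every KD2 and KDR library lay below every NT and KD1 library. The mean sum was 14.8% lower in KD2 and 15.1% lower in KDR than in NT, a difference given as a description with no test.

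**Figure D1:**
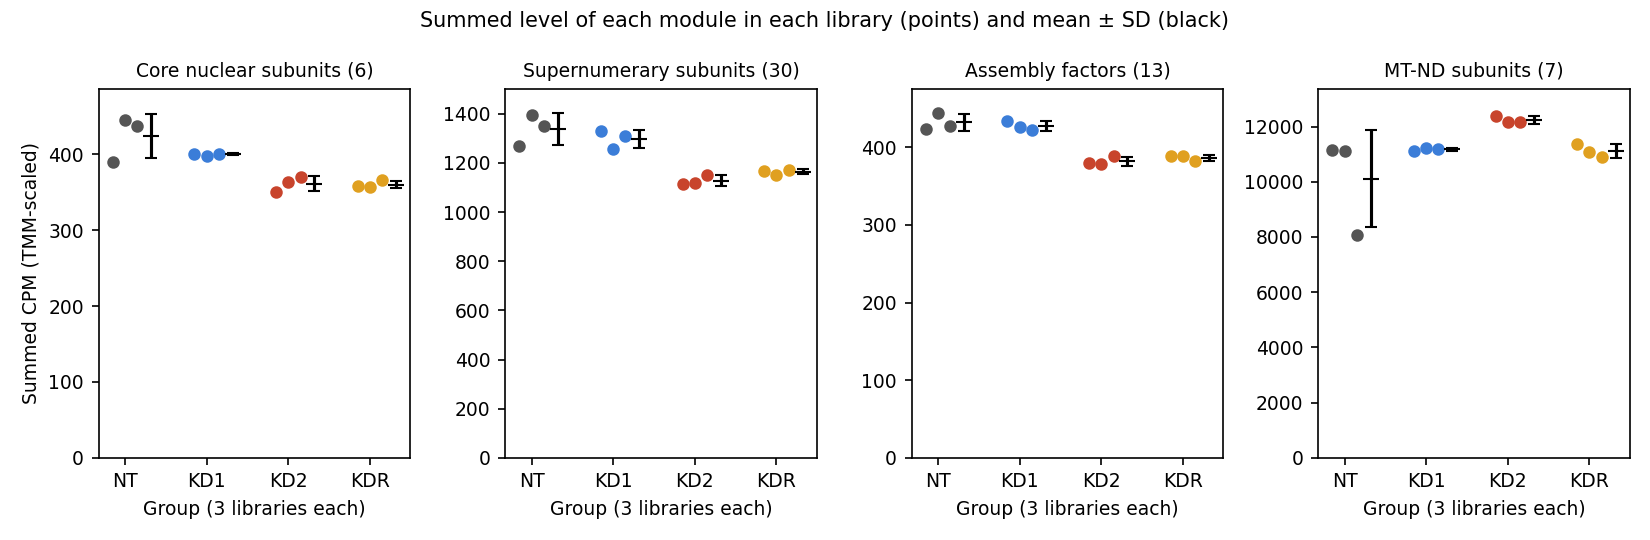
Summed level (CPM, linear axis from 0) of the core subunits, supernumerary subunits, assembly factors and mitochondrially encoded subunits, with a point for each library and the mean ± SD of 3 libraries in black. The KD2 and KDR libraries lie below the NT and KD1 libraries in the 3 panels of nuclear genes, and NT replicate 3 stands apart at 8073 CPM in the panel of mitochondrially encoded subunits.

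NDUFS8 (ENSG00000110717, GRCh38 chromosome 11, 68030617 to 68036644) stood at 71.4, 94.9 and 86.2 CPM in NT, 78.9, 71.6 and 75.8 in KD1, 50.5, 51.8 and 58.4 in KD2, and 73.1, 67.3 and 69.6 in KDR. The KD2 libraries lay below all 9 others, and KDR overlapped NT at the lowest NT library. NDUFS8 fell by 0.65 on the log2 scale in KD2 against NT (95% interval -0.83 to -0.47, edgeR adjusted p = 2.4e-06) and rose by 0.39 from KD2 to KDR (0.21 to 0.57, adjusted p = 0.0013). Both calls were made in all 19 alternatives. Its remaining difference between KDR and NT was -0.27 (adjusted p = 0.0237), a call that ended without NT replicate 2 (-0.17, adjusted p = 0.054) and without NT replicate 3 or KDR replicate 2 or 3 (adjusted p 0.0527 to 0.0993).

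NDUFS1 and NDUFV1, on the NADH-oxidising end of the arm, followed another order. NDUFS1, which carries several iron-sulfur clusters, stood at 138, 129.7 and 153 CPM in NT, 139, 152 and 143 in KD1, 124, 129.7 and 125 in KD2, and 115, 115 and 118 in KDR. The KDR libraries were the lowest of all 12, and the highest KD2 library lay just below the lowest NT library. The change against NT was -0.28 in KDR (edgeR adjusted p = 0.002) and -0.15 in KD2 (adjusted p = 0.0658); without NT replicate 2 the latter was -0.21 with adjusted p = 0.0011. NDUFV1, which binds the flavin and NADH, stood at 133, 164 and 143 CPM in NT, 132 to 138 in KD2 and 123 to 133 in KDR. It fell in KDR by 0.20 (adjusted p = 0.0313), a call that ended without NT replicate 2 (-0.12, adjusted p = 0.076) and without KDR replicate 1 or 2 (adjusted p = 0.136 and 0.0817). NDUFS3, of the ubiquinone-binding module, had 36.1 to 41.3 CPM in NT and 32.8 to 33.1 in KDR (-0.25, adjusted p = 0.0196). That call ended without any 1 of the KDR libraries or without NT replicate 3 (adjusted p 0.0547 to 0.0665).

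NDUFS7 and NDUFV2 complete the core. NDUFS7, which holds the last iron-sulfur cluster before ubiquinone, had 9.56 to 13.7 CPM in NT and 7.57 to 9.89 in KD2 (-0.37, 95% interval -0.68 to -0.06, adjusted p = 0.057). NDUFV2, another iron-sulfur subunit, was counted at only 1.52 to 3.86 CPM in all 12 libraries and was called in no comparison in the main fit. Without NT replicate 3 it was called higher in KDR than in NT (1.07, edgeR adjusted p = 0.0051). From KD2 to KDR it rose by 0.65 to 0.66 without NT replicate 2 or 3 or with only the compared groups fitted (adjusted p 0.0262 to 0.0433). Its level is uncertain: 82.9% of the bases of its principal mRNA lie in exons of a second annotated gene on the same strand (ENSG00000265257), and reads in shared bases are counted for neither gene by default. That gene had 0 counts in every library.

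The supernumerary subunits, the largest module, held the largest number of falls. In KD2 against NT, 15 of 30 fell and none rose, 50% lower where 18.2% of all genes were called lower. The median log2 fold change was -0.26, where the median over all genes tested was -0.01. By position in the complex (core subunits included in the matrix arm), 5 of 15 genes of the matrix arm fell, 6 of 9 of the proximal membrane arm, 4 of 11 of the distal membrane arm, and NDUFAB1, which belongs to both. In KDR against NT, 12 of 30 fell and 1 rose (median -0.19), 40% lower where 14.5% of all genes were called lower. From KD2 to KDR, 4 of 30 rose and none fell, where 32.4% of all genes were called (15.3% higher, 17.1% lower). The latter split depended on the setting: 6 rose and 2 fell without NT replicate 2, 7 rose and 2 fell with only the compared groups fitted, and 5 rose and 4 fell with offsets for GC content and exon length (median 0.04, against 0.09). The count of falls was 10 in KD2 without KD2 replicate 2, and 8 in KDR without KDR replicate 1 or 2. The summed level was 1270.0, 1395 and 1350 CPM in NT, 1257 to 1328 in KD1, 1114 to 1152 in KD2 and 1152 to 1171 in KDR.

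**Figure D2:**
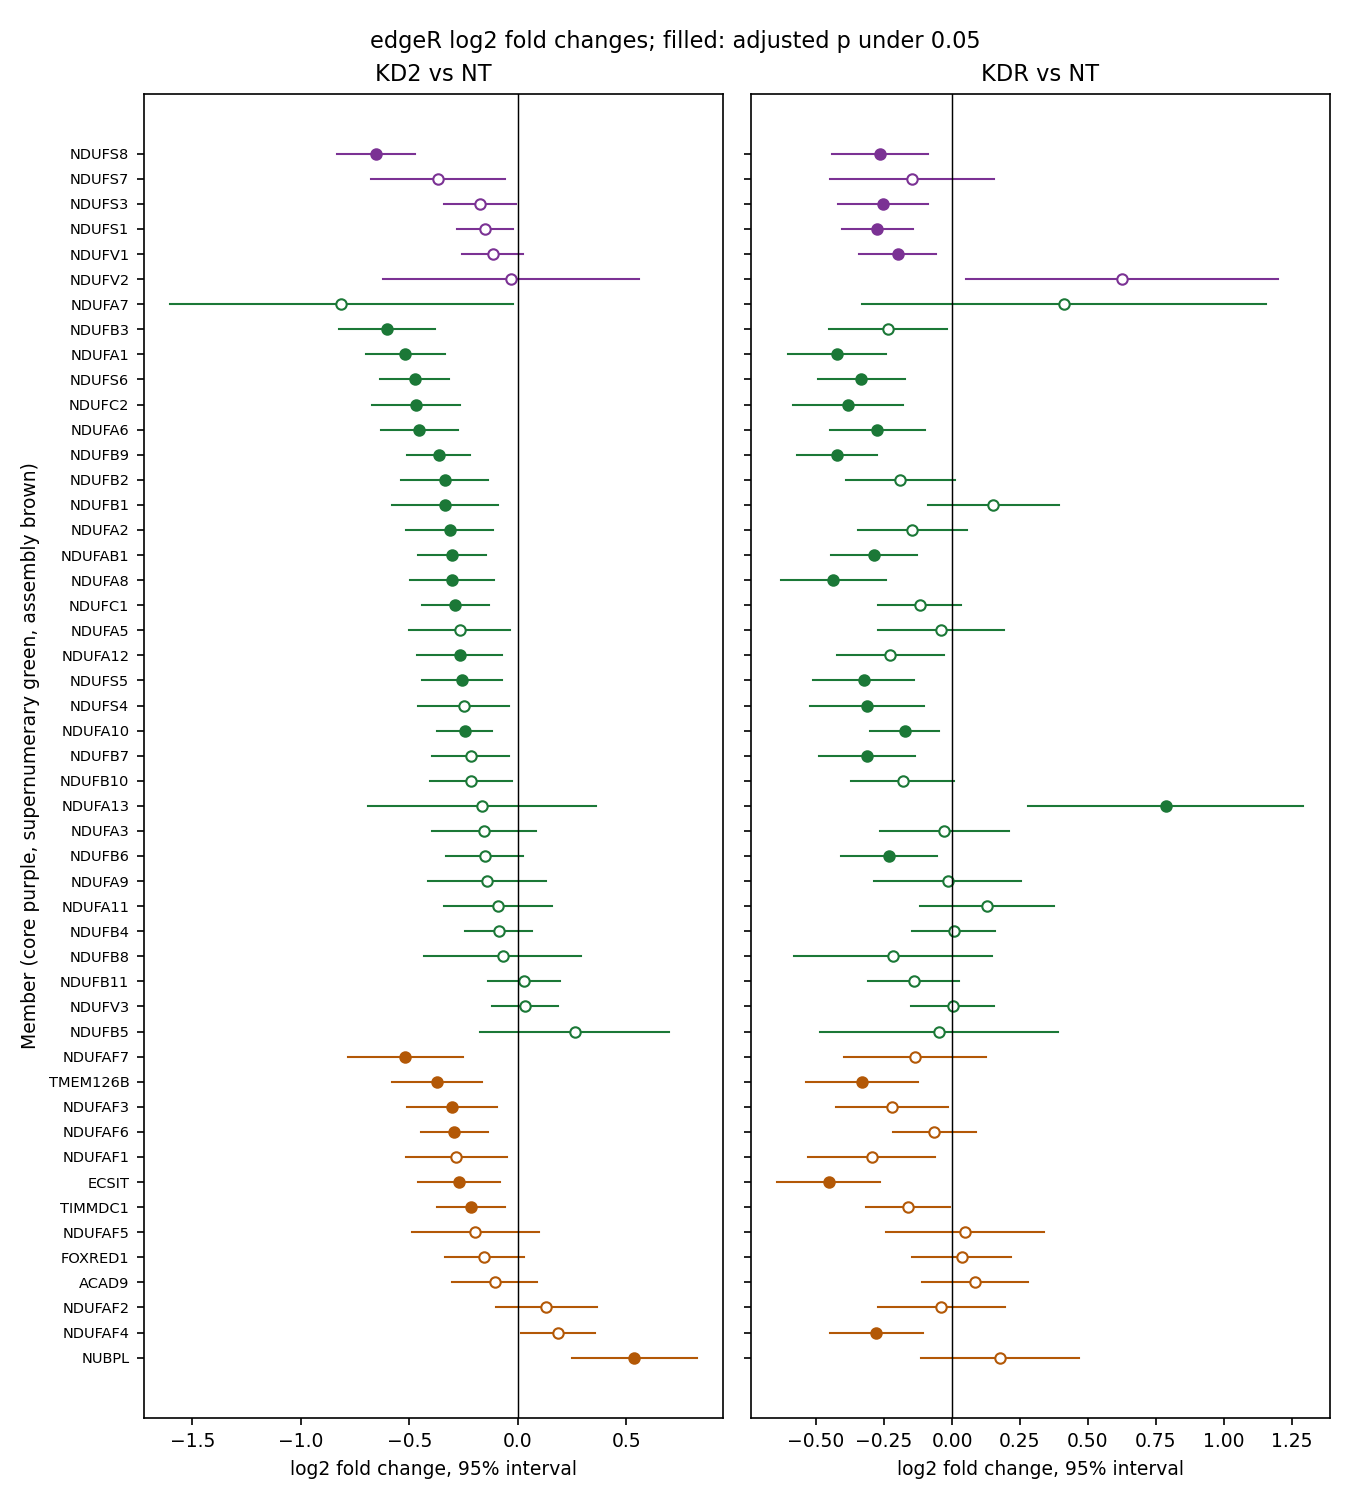
edgeR log2 fold change with its 95% interval for each of the 49 genes in KD2 against NT (left) and KDR against NT (right), ordered within core, supernumerary and assembly genes by the change in KD2; filled points have an adjusted p under 0.05. In KD2, 43 of 49 estimates lie below 0, and NUBPL is the only filled point above it.

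In the matrix arm, NDUFS6, a zinc-binding subunit of the NADH-oxidising module whose promoter is printed above, stood at 44.7, 52.1 and 47.2 CPM in NT, 42.6, 43.7 and 42.7 in KD1, 33.4, 35.0 and 35.2 in KD2, and 39.5, 35.6 and 39.2 in KDR. The groups did not overlap, with NT highest, then KD1, then KDR, then KD2. NDUFS6 fell by 0.48 in KD2 (95% interval -0.64 to -0.31, edgeR adjusted p = 3.5e-05) and by 0.33 in KDR (adjusted p = 0.0021) against NT, while the difference between KDR and KD2, 0.14, was not called (adjusted p = 0.176). NDUFA6, a member of the LYR family that binds the acyl carrier protein NDUFAB1, had 41.1 to 48.8 CPM in NT, 31.3 to 34.8 in KD2 and 37.4 to 38.1 in KDR. It fell by 0.45 in KD2 (adjusted p = 1.9e-04) and by 0.27 in KDR (adjusted p = 0.0183). NDUFAB1 itself (ENSG00000004779, GRCh38 chromosome 16, 23581014 to 23596316), which also serves mitochondrial fatty acid synthesis, had 50.6 to 58.7 CPM in NT, 42.4 to 47.3 in KD2 and 43.2 to 46.1 in KDR. Its change was -0.30 in KD2 (adjusted p = 0.0029) and -0.29 in KDR (adjusted p = 0.0063). The NDUFA6 call in KDR ended without KDR replicate 1 or 2 (adjusted p = 0.0572 and 0.0609).

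In the proximal membrane arm, NDUFA1 (ENSG00000125356, GRCh38 chromosome X, 119871832 to 119876662), a small subunit that anchors in the inner membrane, stood at 49.1, 58.8 and 56.3 CPM in NT, 51.9, 42.0 and 47.6 in KD1, 38.5, 39.6 and 36.3 in KD2, and 43.6, 39.4 and 39.3 in KDR. Both KD2 and KDR lay below every NT library. The fall against NT was 0.52 on the log2 scale in KD2 (95% interval -0.70 to -0.34, edgeR adjusted p = 5.3e-05) and 0.42 in KDR (adjusted p = 7.5e-04). NDUFC2 had 21.5 to 25.4 CPM in NT, 15.3 to 18.3 in KD2 and 17.3 to 17.98 in KDR, and its change was -0.47 (adjusted p = 5.7e-04) and -0.38 (adjusted p = 0.005). It shares 428 exon bases with the read-through gene NDUFC2-KCTD14, so its level is less certain. NDUFA8, which faces the intermembrane space, had 63.2 to 82.8 CPM in NT and 50.1 to 55.1 in KDR (-0.44, adjusted p = 0.001). Its fall in KD2 was smaller (-0.30, adjusted p = 0.0131) and ended without KD2 replicate 1 or 3 (adjusted p = 0.0718 and 0.0726). The other genes of this arm that fell in KD2 were NDUFA10, NDUFC1 and NDUFS5, with log2 fold changes of -0.29 to -0.24; NDUFS5 was not called without NT replicate 2 (-0.10, adjusted p = 0.199) or without KD2 replicate 1 or 2 (adjusted p = 0.0703 and 0.106).

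In the distal membrane arm, where the last proton pumps sit, NDUFB3 had the largest fall. It stood at 28.7, 25.9 and 35.3 CPM in NT, 29.7, 27.1 and 31.1 in KD1, 19.4, 20.7 and 18.9 in KD2, and 24.6, 27.8 and 23.9 in KDR. The KD2 libraries lay below all others. NDUFB3 fell by 0.60 in KD2 against NT (95% interval -0.82 to -0.38, edgeR adjusted p = 8.8e-05) and rose by 0.37 from KD2 to KDR (adjusted p = 0.01); that rise ended without KDR replicate 2 (0.30, adjusted p = 0.0722). NDUFB9 had 71.1, 83.5 and 83.9 CPM in NT, 72.1 to 74.0 in KD1, 59.9 to 64.2 in KD2 and 57.3 to 60.5 in KDR. KDR did not lie above KD2 for this gene, and NDUFB9, like NDUFA6 an LYR protein, fell by 0.36 in KD2 (adjusted p = 2.5e-04) and by 0.42 in KDR (adjusted p = 7.6e-05) against NT. NDUFB1 had 23.3, 26.3 and 28.7 CPM in NT, 18.6, 19.1 and 24.6 in KD2, and 30.4, 26.2 and 30.3 in KDR. It rose by 0.49 from KD2 to KDR (adjusted p = 0.0025), a call made in all 19 alternatives. Its fall in KD2 against NT (-0.33, adjusted p = 0.0296) ended in 4 alternatives, 3 of them without 1 library (NT replicate 3, KD2 replicate 1 or KD2 replicate 2; adjusted p 0.124 to 0.153). In KDR against NT, NDUFB7 also fell (-0.31, adjusted p = 0.0082), in all 19 alternatives.

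Other supernumerary subunits showed little or no difference, or depended on single libraries or the setting. The 5 described here were chosen after their values were seen. NDUFV3, of the NADH-oxidising module, stood at 74.1, 69.3 and 72.6 CPM in NT, 70.5 to 75.2 in KD2 and 68.5 to 76.0 in KDR. Its change in KD2 against NT was 0.03 with a 95% interval of -0.12 to 0.19. NDUFB11 gave 0.03 as well (-0.14 to 0.20), and NDUFB4 gave -0.09 (-0.24 to 0.07). NDUFB5 had 24.4 and 29.4 CPM in NT replicates 1 and 3 but 10.0 in replicate 2, and 24.4 to 26.3 in KD2. NDUFA5 showed the same split, with 91.9 and 88.7 against 56.2 CPM in replicate 2, and 63.7 to 67.4 in KD2. Without NT replicate 2, NDUFA5 differed by -0.46 in KD2 (adjusted p = 6.0e-09), where with it the value was -0.27 (adjusted p = 0.0679), and NDUFB5 gave -0.08 (adjusted p = 0.599). In that same fit NDUFB5 was called lower in KDR than in NT (-0.395, edgeR adjusted p = 0.0020) and than in KD2 (-0.32, adjusted p = 0.0046). Without NT replicate 3, NDUFB5 was called higher in KD2 than in NT (0.56, adjusted p = 0.0374). In all, 14 of the 49 genes were called in none of the 5 comparisons in the main fit, among them the core subunits NDUFS7 and NDUFV2 and the supernumerary subunits NDUFA3, NDUFA9, NDUFA11, NDUFB8 and NDUFB10. In several alternatives NDUFS7 fell in KD2 against NT, as with the replicate block or without NT replicate 3 (edgeR adjusted p = 0.0446 and 0.0236). NDUFB10 fell there without NT replicate 1 or 3 or KD2 replicate 3, and with no filter (adjusted p 0.0165 to 0.0397). Without NT replicate 2, NDUFA3, NDUFA9 and NDUFB10 fell in KD2 against KD1 (adjusted p 0.0017 to 0.0204).

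**Figure D3:**
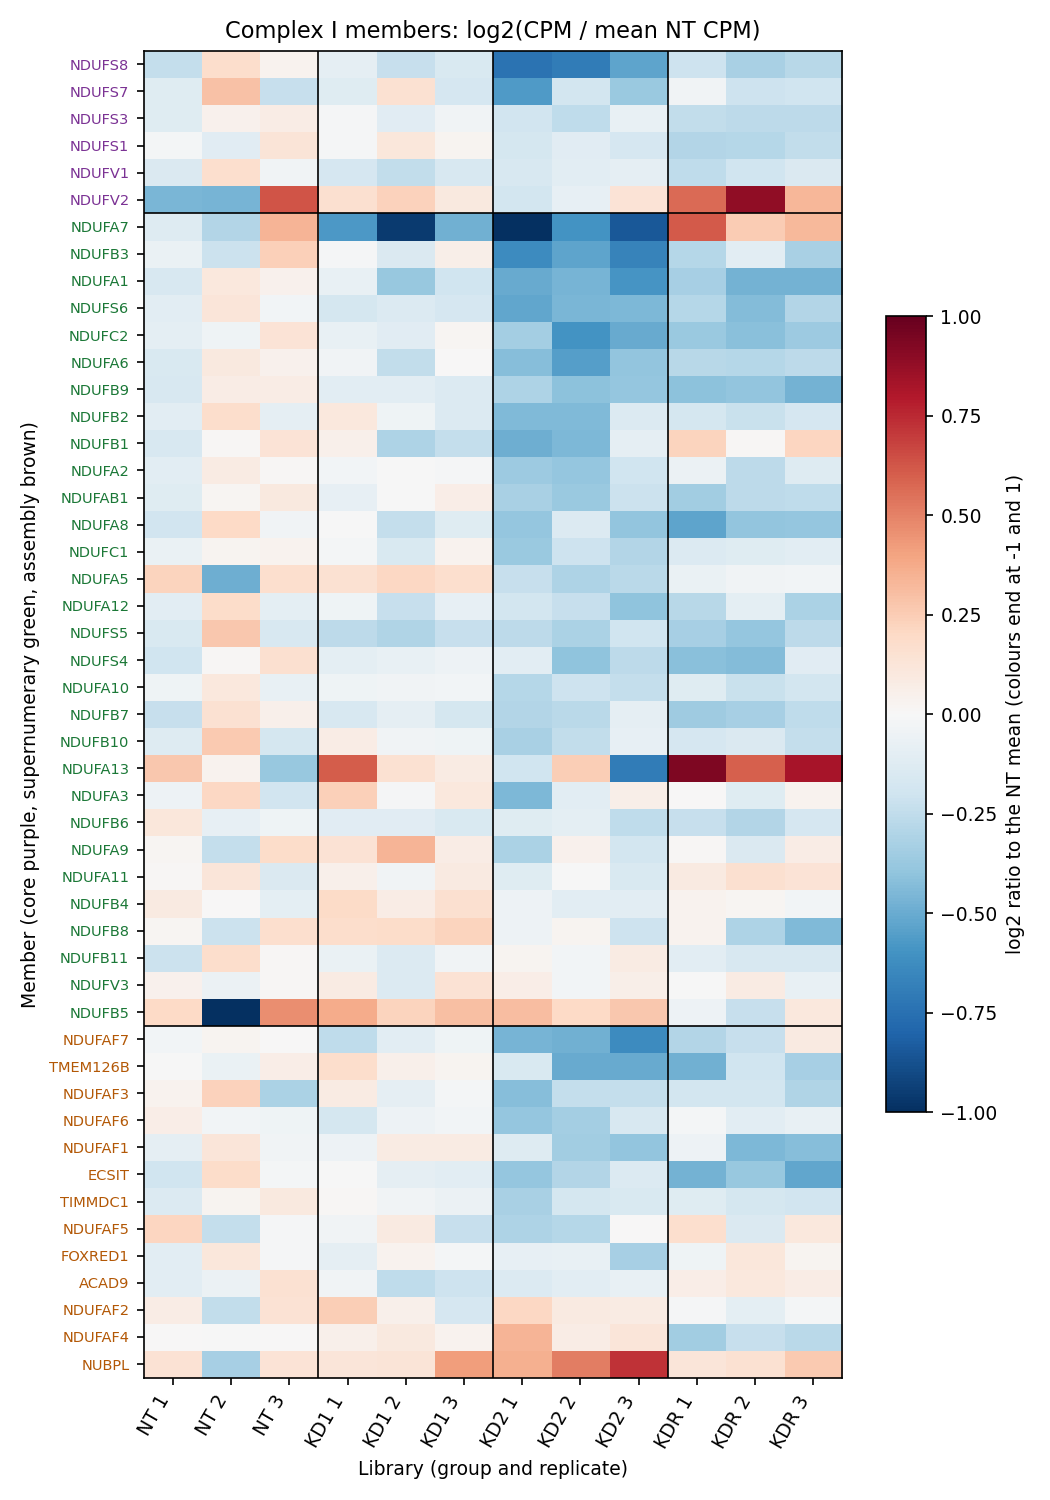
log2 ratio of each gene's CPM in each library to its NT mean, for 6 core (purple names), 30 supernumerary (green) and 13 assembly genes (brown), with colours ending at -1 and 1. The KD2 columns are mostly blue, NT replicate 2 stands apart for NDUFB5 and NDUFA5, and NDUFA13, NDUFA7 and NDUFV2 vary most between libraries.

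A few supernumerary genes were counted at levels that shared exons leave uncertain. The principal mRNA of NDUFA7 lay to 78.7% in exons of other genes, that of NDUFB8 to 71.7%, that of NDUFA11 to 67.0% and that of NDUFA13 to 44.1%, while 27 of the 49 genes had no such base. NDUFA7 had 13 to 55 counts per library and 0.51 to 1.61 CPM. It rose by 1.23 from KD2 (0.51, 0.694 and 0.584 CPM) to KDR (1.61, 1.26 and 1.32; adjusted p = 0.0147), a call that ended without KD2 replicate 1 or KDR replicate 1 (adjusted p = 0.0595 and 0.0634). NDUFA13 had 3.10, 2.64 and 1.98 CPM in NT, 1.59 to 3.05 in KD2, and 4.91, 3.90 and 4.57 in KDR. It rose by 0.95 from KD2 to KDR (adjusted p = 0.0045) and by 0.79 from NT to KDR (adjusted p = 0.0188), the only rise among the 49 genes in that comparison; the latter ended without NT replicate 3, KDR replicate 1 or KDR replicate 3 (adjusted p 0.0527 to 0.0839). On the same strand, ENSG00000258674 shares 437 bases with NDUFA13 and YJEFN3 shares 131. Over the 12 libraries these genes had 244 and 3134 counts, and NDUFA13 had 1136. Which gene the reads in shared bases came from cannot be told apart, and such reads are counted for no gene by default. Beyond overlaps, 20 of the 49 genes have named pseudogenes in the annotation, 61 in all.

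**Figure D4:**
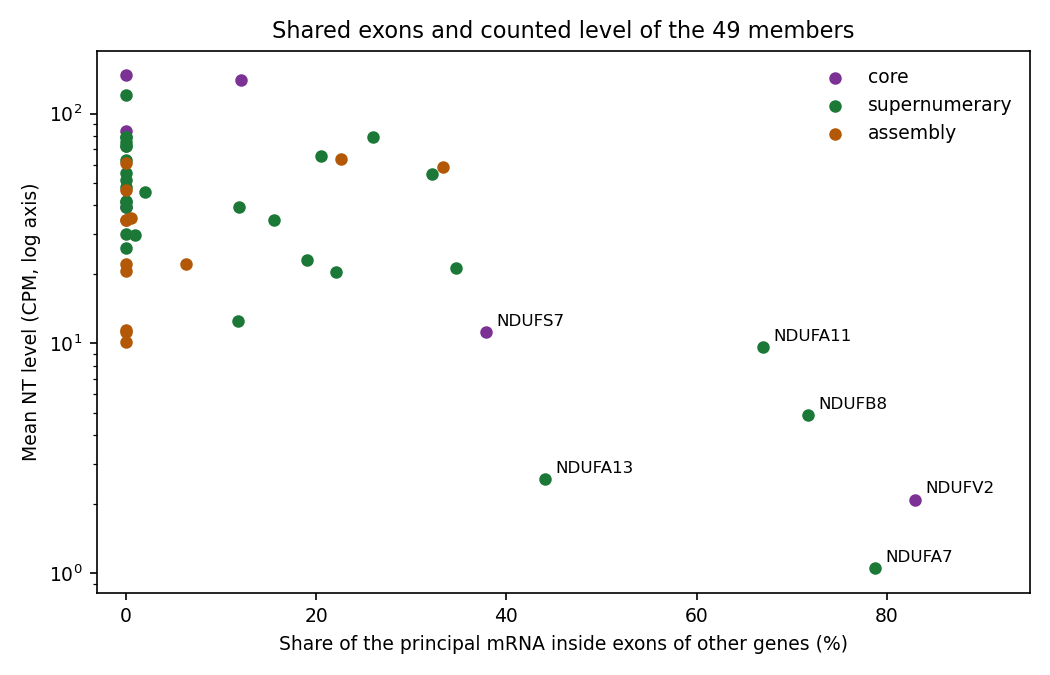
Share of the principal mRNA (GENCODE 29) that lies inside exons of other genes (x axis, percent) against the mean NT level (y axis, CPM, log scale) of the 49 genes, coloured by module. The 4 genes with at least 50% shared, NDUFV2, NDUFA7, NDUFB8 and NDUFA11, have mean NT levels of 1.05 to 9.61 CPM, on a scale not divided by length.

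To compare levels between genes, they were divided by the kilobases of mRNA free of shared exons, over the 45 genes with at least 300 such bases. On that scale, the highest NT levels were those of NDUFB9 (151 CPM per kilobase), NDUFS5 (137) and NDUFA1 (130.0), and the lowest that of NDUFA9 (1.69). The median was 59.5 for 27 supernumerary subunits, 41.8 for 5 core subunits and 18.02 for the 13 assembly factors. Split by CPM not divided by length, which follows the number of counts, 15 of the 24 genes above the median of 39.3 CPM in NT fell in KD2, and 7 of the other 25. Genes with more counts have smaller errors, and the part of this in these shares was not tested.

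Assembly factors build the complex from separate modules. In KD2 against NT 6 of 13 fell and 1 rose (median -0.22). These are 46.2% and 7.7%, where 18.2% of all genes were called lower and 17.8% higher. In KDR against NT 3 fell (median -0.14), 23.1% where 14.5% of all genes were called lower. From KD2 to KDR, 2 rose and 2 fell, 15.4% each way, where 15.3% of all genes were called higher and 17.1% lower. The median was 0.06. The count of falls in KD2 was 4 without NT replicate 2 or KD2 replicate 1, that in KDR was 2 without KDR replicate 1, and neither rise from KD2 to KDR was called without KD2 replicate 2 or KDR replicate 3. Their summed level was 423, 445 and 428 CPM in NT, 423 to 434 in KD1, 378 to 389 in KD2 and 382 to 389 in KDR.

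**Figure D5:**
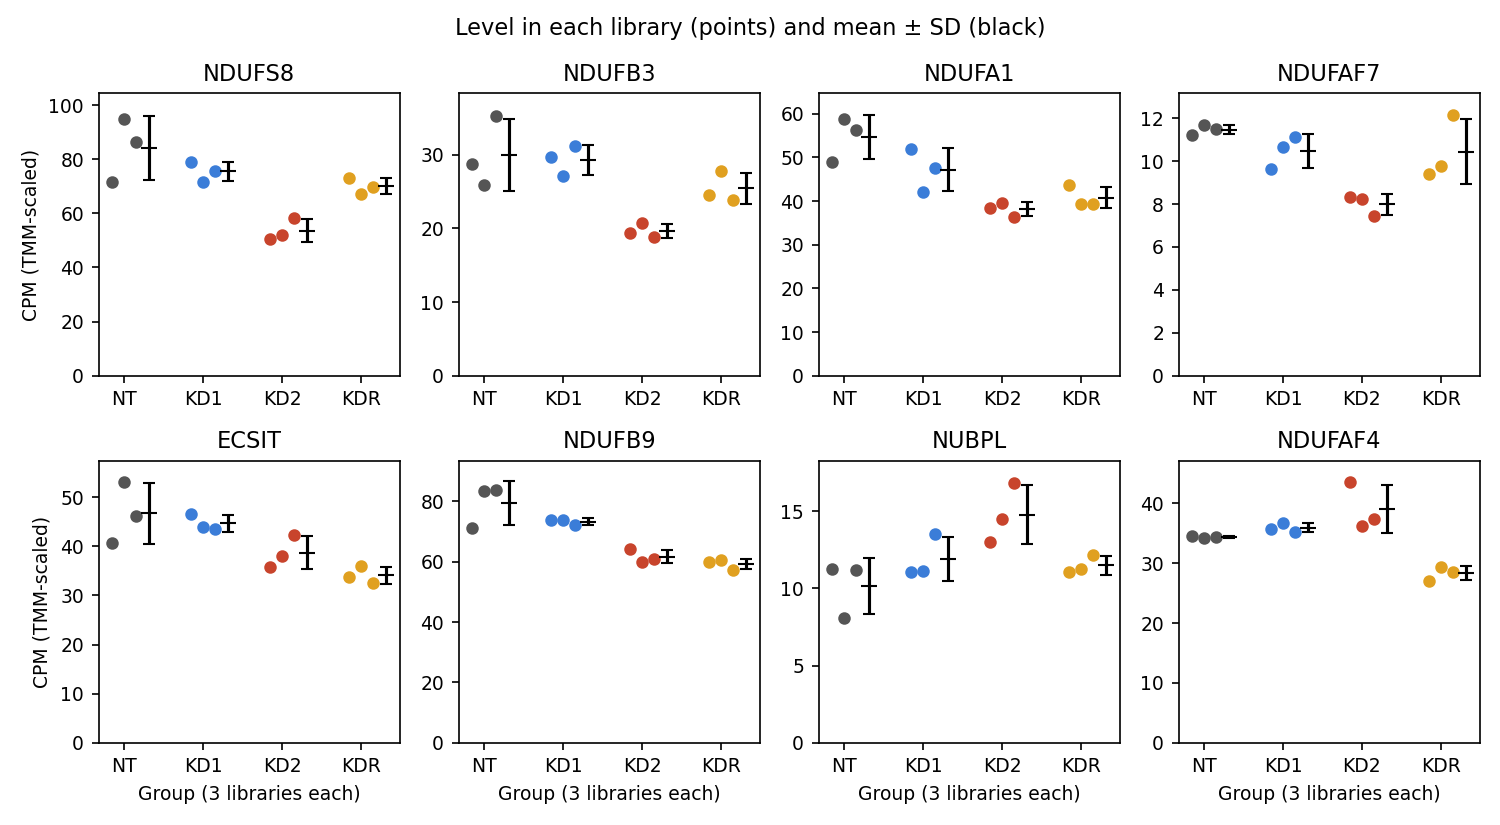
Level (CPM, linear axis from 0) of 8 complex I genes in each library, with the mean ± SD of 3 libraries in black beside each group. NDUFS8, NDUFB3 and NDUFAF7 are lowest in KD2, NDUFB9 and ECSIT are low in both KD2 and KDR, NUBPL is highest in KD2, and NDUFAF4 is lowest in KDR.

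The MCIA complex (NDUFAF1, ACAD9, ECSIT and TMEM126B) builds the proximal membrane arm. TMEM126B, its membrane anchor, had 34.5, 33.0 and 36.3 CPM in NT, 35.3 to 39.1 in KD1, 31.2, 24.4 and 24.4 in KD2, and 24.8, 30.2 and 27.5 in KDR. KD2 and KDR lay below every NT library. It fell by 0.37 in KD2 (edgeR adjusted p = 0.0052) and by 0.33 in KDR (adjusted p = 0.0149); the latter ended without KDR replicate 1 (-0.26, adjusted p = 0.106). ECSIT, which bridges the other MCIA proteins, had 40.8, 53.2 and 46.2 CPM in NT, 43.5 to 46.6 in KD1, 35.7, 38.1 and 42.4 in KD2, and 33.7, 35.9 and 32.6 in KDR. KDR lay below all NT and KD1 libraries and overlapped KD2 at its highest library. ECSIT fell in KDR against NT by 0.45 (95% interval -0.64 to -0.26, adjusted p = 6.1e-04), in all 19 alternatives. Its fall in KD2 (-0.27, adjusted p = 0.0227) ended without NT replicate 2 (-0.17, adjusted p = 0.0996) and without KD2 replicate 1 or 2 (adjusted p = 0.127 and 0.0748). NDUFAF1 gave -0.28 in KD2 and -0.29 in KDR (adjusted p = 0.0544 and 0.055). ACAD9, an acyl-CoA dehydrogenase relative, gave -0.11 in KD2 (95% interval -0.30 to 0.09).

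Of 6 factors that act on the ubiquinone and ND1 modules, 4 fell in KD2 against NT, where 18.2% of all genes were called lower. NDUFAF7, an arginine methyltransferase, had 11.2, 11.7 and 11.5 CPM in NT, 9.62 to 11.1 in KD1, 8.31, 8.22 and 7.43 in KD2, and 9.38, 9.79 and 12.2 in KDR. The KD2 libraries were the lowest of all 12. It fell by 0.52 in KD2 against NT (95% interval -0.78 to -0.25, edgeR adjusted p = 0.0025) and rose by 0.38 to KDR (adjusted p = 0.025). NDUFAF6 had 59.1 to 63.8 CPM in NT, 46.6 to 54.6 in KD2 and 56.5 to 60.2 in KDR. It fell by 0.29 (adjusted p = 0.0033) and rose by 0.23 to KDR (adjusted p = 0.0219). The rise of NDUFAF7 ended without KDR replicate 3 (0.26, adjusted p = 0.181), without KD2 replicate 2 or 3 and with no filter on low counts (adjusted p 0.0531 to 0.098), and that of NDUFAF6 ended without KD2 replicate 1 or 2 or KDR replicate 1 or 3 (adjusted p 0.0577 to 0.123). NDUFAF3 (-0.30, adjusted p = 0.0203) and TIMMDC1 (-0.22, adjusted p = 0.0266) also fell in KD2, the first not without NT replicate 2 (-0.18, adjusted p = 0.0789), NT replicate 1 or KD2 replicate 1 (adjusted p = 0.0536 and 0.117), and the second not without NT replicate 3 or KD2 replicate 1 (adjusted p = 0.122 and 0.155).

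NDUFAF4, the partner of NDUFAF3, had another order. It stood at 34.5, 34.2 and 34.5 CPM in NT, 35.7, 36.7 and 35.3 in KD1, 43.6, 36.2 and 37.4 in KD2, and 27.1, 29.4 and 28.6 in KDR. All KD2 libraries lay above NT, with a difference of 0.19 that was not called (edgeR adjusted p = 0.0823), and all KDR libraries lay below every other library. NDUFAF4 fell by 0.46 from KD2 to KDR (95% interval -0.63 to -0.29, adjusted p = 1.2e-04), a call made in all 19 alternatives. Against NT the fall in KDR was 0.28 (adjusted p = 0.0137), and it ended without KDR replicate 1 (-0.25, adjusted p = 0.0747).

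NUBPL (ENSG00000151413, GRCh38 chromosome 14, 31489956 to 31861224), which delivers iron-sulfur clusters to the matrix arm, was the only 1 of the 49 genes that rose in KD2. It stood at 11.2, 8.06 and 11.2 CPM in NT, 11.1, 11.1 and 13.5 in KD1, 13.0, 14.5 and 16.8 in KD2, and 11.0, 11.3 and 12.2 in KDR. The KD2 libraries lay above all NT and KDR libraries and overlapped KD1. The rise over NT was 0.54 (95% interval 0.25 to 0.82, edgeR adjusted p = 0.0038), and 0.39 without NT replicate 2 (adjusted p = 0.0176). From KD2 to KDR it fell by 0.36 (adjusted p = 0.0497), and this fall was not called in 8 alternatives: without KD2 replicate 3 (-0.26, adjusted p = 0.22), without KD2 replicate 2, any 1 KDR library, or KD1 replicate 1 or 2, and with a minimum of 1 CPM (adjusted p 0.0527 to 0.143). NDUFAF2 and FOXRED1, which act late in assembly, gave 0.13 (95% interval -0.10 to 0.36) and -0.15 (-0.34 to 0.03) in KD2.

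Over all 49 genes, 22 fell and 1 rose in KD2 against NT, 44.9% lower where 18.2% of all genes tested were called lower. For 22 of them, all KD2 libraries lay below all NT libraries (20.9% of all genes), and for 2 above (21.5%). The median was -0.25, against -0.01 over all genes, and single values ran from -0.81 to 0.54. The sum over the 49 genes was 2084, 2285 and 2214 CPM in NT, 1844 to 1911 in KD2 and 1898 to 1919 in KDR, which is 14.7% lower in KD2 and 12.9% lower in KDR by the means. In all 19 alternatives, 13 of the 22 falls were called, those of NDUFA1, NDUFA6, NDUFA10, NDUFAB1, NDUFB3, NDUFB9, NDUFC1, NDUFC2, NDUFS6, NDUFS8, NDUFAF6, NDUFAF7 and TMEM126B, and so was the rise of NUBPL. Without NT replicate 2, 21 fell and 1 rose.

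The libraries labelled KD1 gave none of these calls. Against NT, 0 of 49 genes and 0% of all genes were called with edgeR, with a median of -0.03 for the 49, and DESeq2 called 0 of the 49 too; 1185 of 19373 genes had an unadjusted p under 0.05. KD1 lay wholly below NT for 6 of the 49 genes and above for 2 (4.99% and 4.41% of all genes). Against KD1, 20 of the 49 genes fell in KD2 and none rose, where 35.5% of all genes were called (17.5% lower). The falls included NDUFS8 (-0.50, edgeR adjusted p = 8.3e-05), NDUFB3 (-0.58, adjusted p = 1.5e-04), NDUFA5 (-0.44, adjusted p = 0.0032) and TMEM126B (-0.46, adjusted p = 8.4e-04). All KD2 libraries lay below all KD1 libraries for 26 of the 49 (24.6% of all genes). NDUFS1 and NDUFAF1 fell here as well (-0.20, adjusted p = 0.018, and -0.32, adjusted p = 0.028), but the first call ended without KD1 replicate 2, KD2 replicate 1 or KD2 replicate 3, and the second without KD1 replicate 2 or 3 or KD2 replicate 2 or 3. The count of falls was 13 without KD1 replicate 3.

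KDR shares its reference libraries with KD2 in the comparisons with NT, so the values are only set side by side. From KD2 to KDR 7 of 49 genes rose (NDUFS8, NDUFA7, NDUFA13, NDUFB1, NDUFB3, NDUFAF6 and NDUFAF7) and 2 fell (NDUFAF4 and NUBPL), a share of 14.3% higher where 15.3% of all genes were called higher. The median was 0.08, against 0.02 over all genes. KDR lay wholly above KD2 for 16 of the 49 (24.5% of all genes) and below for 6 (25.4%). Without NT replicate 2, 10 rose and 6 fell, with only KD2 and KDR fitted 12 rose and 6 fell, and with offsets for GC content and exon length 8 rose and 8 fell. Against NT, 19 genes fell in KDR and 1 rose, 38.8% lower where 14.5% of all genes were called lower, with a median of -0.18; KDR lay wholly below NT for 19 (18.7% of all genes). In all 19 alternatives, 10 of these falls were called: NDUFA1, NDUFA8, NDUFAB1, NDUFB7, NDUFB9, NDUFC2, NDUFS1, NDUFS5, NDUFS6 and ECSIT. The count of called genes was 12 without KDR replicate 1 and 13 without KDR replicate 2.

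Other features of the libraries moved with these groups. The 6 proliferation markers summed to 187 to 203 CPM in NT, 189.7 to 200.7 in KD1, 515 to 537 in KD2 and 299 to 301 in KDR, and all 6 rose in KD2. The 9 luminal markers summed to 15993 to 18995 CPM in NT, 10743 to 11059 in KD2 and 16114 to 16546 in KDR, and 8 of 9 fell in KD2. In KD2 against NT, 17.8% of all genes tested were called higher and 18.2% lower. Mitochondrially encoded genes took 3.42%, 3.37% and 2.59% of counts in NT replicates 1, 2 and 3. Their share was 3.41% to 3.43% in KD1, 3.59% to 3.70% in KD2 and 3.45% to 3.53% in KDR. The part of each in the results was not tested, and in bulk samples fewer cells of a type and less RNA per cell cannot be told apart.

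The 7 complex I subunits encoded in mitochondrial DNA did not fall with the nuclear genes. In KD2 against NT 4 of 7 rose and none fell (median 0.51), where 17.8% of all genes were called higher. MT-ND6, the only subunit read from the other DNA strand, stood at 206, 187 and 201 CPM in NT, 204 to 218 in KD1, 335 to 362 in KD2 and 283 to 301 in KDR. It rose by 0.82 in KD2 (edgeR adjusted p = 3.9e-11) and by 0.56 in KDR (adjusted p = 4.2e-08), and the KDR libraries lay between those of KD2 and the other groups. The file headers name no option for strand, so reads of MT-ND6 cannot be told apart from reads of the opposite strand at the same bases. MT-ND1 rose by 0.72 in KD2 (adjusted p = 1.5e-07), and MT-ND5 by 0.59 (adjusted p = 1.5e-06). NT replicate 3 was low for 6 of these genes and had a sum of 8073 CPM, where the other NT libraries had 11130 and 11142, KD1 11110 to 11236, KD2 12152 to 12387 and KDR 10881 to 11375. Without it, MT-ND1 rose by 0.58 (adjusted p = 1.6e-10) and MT-ND6 by 0.83 (adjusted p = 1.4e-10), 4 of 7 rose and MT-ND4L fell (-0.26, adjusted p = 0.0027).

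The other respiratory complexes, taken by lists of their nuclear genes, gave the following counts in KD2 against NT. Besides subunits, COX7A2L was counted with complex IV and the inhibitor gene ATP5IF1 with complex V. Over all genes in this comparison, 18.2% were called lower and 17.8% higher. Complex II, which feeds electrons from succinate into ubiquinone, had 0 of 4 called with edgeR and with DESeq2 and 1 at an unadjusted p under 0.05. Complex III had 5 of 9 lower and 1 higher (none higher without KD2 replicate 1), with UQCRQ at -0.45 (edgeR adjusted p = 8.3e-05) and UQCRFS1, its iron-sulfur subunit, at -0.37 (adjusted p = 1.7e-04). Complex IV, cytochrome c oxidase, had 10 of 12 lower and none higher (median -0.34), with COX6C at -0.67 (adjusted p = 1.2e-07). Complex V, ATP synthase, had 6 of 16 lower and none higher (median -0.13), with its inhibitor gene ATP5IF1 at -0.46 (adjusted p = 1.1e-04). In KDR against NT, where 14.5% of all genes were lower, the counts of lower genes were 1 of 4, 5 of 9, 10 of 12 and 4 of 16. The 1 call of complex II, SDHB, was lost in 12 of 19 alternatives, and the count of complex V was 7 without NT replicate 1 or 2 and 9 with offsets for GC content and exon length. In KD2, the count of complex V was 4 without NT replicate 3 or KD2 replicate 2, and without NT replicate 2 it had 7 lower and 2 higher. The least stable fall in KD2 was lost in 12 of 19 alternatives for complex III and in 10 for complex V. Whether complex I differed from the other complexes was not tested.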

How the data were processed

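RNA of 12 libraries was counted per gene. The deposited values are whole-number counts of read pairs, made by the authors with featureCounts 1.6.4 on the Ensembl release 111 annotation of GRCh38, per the file headers, which name no option for strand. FastQC, cutadapt and HISAT2 stand in the submitters' processing notes, with versions not given in the sources used here. Reads of a gene and of an overlapping or antisense gene therefore cannot be told apart in shared bases. The 49 genes and all gene lists were chosen with earlier results of these data known.

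Counts of 19373 genes that passed edgeR's filter on low counts were fitted in 1 model of the 4 groups with edgeR 4.0.16 (R 4.3.3; quasi-likelihood test, trimmed mean of M values, no replicate term), with Benjamini-Hochberg adjustment over all genes tested. The 5 comparisons were KD1, KD2 and KDR against NT, KDR against KD2, and KD2 against KD1. Library totals were 23786288 to 38240369 counts. Full statistics were given for at most 4 genes of each module (core, supernumerary, assembly) and comparison with the smallest adjusted p among those called, and comparison lists name at most 3 genes each. Members described beyond that were chosen after their values were seen.

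The 19 alternatives were DESeq2 1.42.0, its size factors in edgeR, no filter, a fit restricted to the compared groups, at least 1 CPM demanded in 3 libraries, a block for the replicate number, each of 12 libraries left out, and offsets for GC content and exon length; the last was added after seeing the data. Tested on simulated data for KD2 against NT (19373 genes), the fit recovered 71% of 100 genes changed 1.5-fold and 87% of 100 changed 2-fold, and 7.6% of its calls were false. In the real comparison 35.9% of all genes were called, a far larger share, so the false share need not carry over. No recovery is given for changes below 1.5-fold, such as the median of the 49 genes (-0.25 on the log2 scale). Shared bases of principal mRNAs were taken from GENCODE 29 models on GRCh38, promoters from RefSeq (GRCh38.p14).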

Additional observations from a re-analysis of the deposited data

How the results depend on the processing

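Of the 22 genes with full statistics, none changed direction while called under any of the 19 alternatives. KD1 against NT gave 0 called genes of the 49 under all of them. With single libraries left out, the number of the 49 genes called ranged from 17 to 28 in KD2 against NT (23 with all libraries), 6 to 16 in KDR against KD2 (9), 12 to 21 in KDR against NT (20) and 13 to 28 in KD2 against KD1 (20); the highest value in KDR against KD2 and in KD2 against KD1 came without NT replicate 2. In KDR against KD2 the number was also 16 with offsets for GC content and exon length (8 higher and 8 lower, against 7 and 2) and 18 with only the groups compared. With DESeq2 the numbers called were 25, 9, 21 and 22 in these 4 comparisons. The cause of these shifts was not tested, beyond the fewer libraries in the fits that leave some out. The labels do not say whether replicate numbers mark pairs of samples. Of 18 same-number correlations of deviations, 1 was above 0.1 (-0.161 to 0.25). Pairs with different numbers were not compared, so this cannot show whether libraries shared a culture or day. With the replicate block, the numbers called in the same 4 comparisons were 25, 9, 19 and 20. Depth limits the genes with few counts, such as NDUFA7 with as few as 13 in a library.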

Other observations

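Of 10 regulators of respiratory genes, 3 rose and 2 fell in KD2 against NT with edgeR's test as before, which is 30% and 20% where 17.8% and 18.2% of all genes were called. PPARGC1A, a coactivator of genes of mitochondrial respiration, stood at 7.26, 8.88 and 8.64 CPM in NT, 7.35, 10.1 and 6.22 in KD1, 3.06, 3.12 and 3.30 in KD2, and 4.06, 4.51 and 3.87 in KDR. KD2 and KDR lay below all NT and KD1 libraries. PPARGC1A fell by 1.39 in KD2 (edgeR adjusted p = 1.9e-06) and by 0.99 in KDR (adjusted p = 1.6e-04) against NT. Its relative PPRC1 had 45.8 to 55.1 CPM in NT, 66.3 to 68.1 in KD2 and 54.4 to 55.6 in KDR, and rose by 0.42 in KD2 (adjusted p = 1.1e-04). NRF1, whose letters were searched in the promoters, fell by 0.29 in KD2 (adjusted p = 0.0112), a call that ended without KD2 replicate 3. In KDR against NT, 3 of 10 fell (14.5% of all genes) and none rose, with ESRRA, an orphan nuclear receptor, at -0.33 (adjusted p = 6.0e-04). Without NT replicate 2, 1 rose and 2 fell in KD2, and 1 rose and 5 fell in KDR. Without KD2 replicate 1, 1 rose in KD2, without KD2 replicate 3, 1 fell there, and without NT replicate 1 or 3, 1 rose in KDR. Whether these levels bear on the complex I genes was not tested.

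Further assembly and import factors of complex I had 5 of 8 genes lower and none higher in KD2 against NT (median -0.29). Over all genes tested, 18.2% were called lower and 17.8% higher in that comparison. In KDR against NT, 5 of 8 were lower, where 14.5% of all genes were called lower. The count in KDR was 2 without KDR replicate 1 or 3, 3 without KDR replicate 2, and 7 with offsets for GC content and exon length. AIFM1 and CHCHD4, which work together in importing proteins into the intermembrane space, differed by -0.53 (edgeR adjusted p = 2.3e-06) and -0.55 (adjusted p = 4.0e-04) in KD2. AIFM1 stood at 66.1, 70.3 and 67.3 CPM in NT, 58.8 to 62.1 in KD1, 44.9 to 49.1 in KD2 and 46.8 to 52.0 in KDR, with KD2 and KDR below all NT and KD1 libraries. TMEM70, which takes part in the assembly of complex I and ATP synthase, gave -0.36 (adjusted p = 4.7e-04).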
